A study of Mus musculus with 4 samples.

Results

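The genes described here carry, store and release iron. They are 10 mouse genes, found by matching gene identifiers with the version dropped to the symbols Fth1, Ftl1, Ncoa4, Trf, Tfrc, Slc11a2, Slc40a1, Hfe, Ireb2 and Hamp, and all 10 had a row among the 55401 genes counted. RNA-seq counts were available for 4 libraries of C57BL/6 tissue, with 1 library per group. The kidney groups were CLP and CLP + MLT, and the heart groups were CLP and CLP + MLT. CLP (cecal ligation puncture) is surgery that lets gut bacteria leak into the abdomen and so causes sepsis. For the kidney groups the study's methods describe male mice aged 8 weeks. The CLP + MLT group drank water with melatonin (MLT) at 25 μg/ml, dissolved in 0.1% ethanol, for 14 days before surgery. Kidneys were taken 24 h after CLP, and the drinking water of the CLP group is not described. The methods do not describe the hearts, so no dose, time or age is given for them. The titles of both melatonin libraries read CLP+MLT4, while the treatment field of the heart library reads CLP+MLT, and the 4 is not explained. Whether a library came from 1 mouse or several is not stated, and sham libraries were not used here. No group had a replicate, so how much mice of 1 group differ is unknown and no test of a difference was possible.

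Iron enters most cells bound to transferrin, through the transferrin receptor, and crosses membranes through divalent metal transporters. Inside the cell it is held in ferritin, a shell built of heavy and light chains, and it leaves through ferroportin, which the liver hormone hepcidin removes from the cell surface. Iron regulatory proteins adjust this traffic by binding a short RNA hairpin, the iron responsive element (IRE). When iron is scarce, binding in front of the coding sequence blocks translation, and binding behind the coding sequence protects the mRNA from decay. In the kidney, proximal tubule cells take back filtered transferrin, and sepsis is known for withdrawing iron from the circulation.

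The hairpins are printed because their place divides the genes that hold them by how iron acts on the mRNA. In 1 transcript per gene (GENCODE release M21, GRCm38, the same assembly as mm10), both untranslated regions were searched on the transcribed strand. The motif was a C, then 5 bases, the loop CAGTGN, and 5 bases that pair with those before the loop, with G-T pairs allowed. A match was found in 4 of the 10 genes. Across 21827 protein-coding genes, 0.0962% held a match before the coding sequence and 0.504% behind it, in regions of a median length of 153 and 758 bases. The loop of 6 letters is in capitals.
Fth1, before the coding sequence, chr19:9982733-9982760, plus strand: tcctgcttcaaCAGTGCttgaacggaac
Ftl1, before the coding sequence, chr7:45459779-45459806, minus strand: tcttgcttcaaCAGTGTttgaacggaac
Slc40a1, before the coding sequence, chr1:45925465-45925492, minus strand: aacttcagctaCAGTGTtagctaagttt
Tfrc, behind the coding sequence, chr16:32631220-32631247, plus strand: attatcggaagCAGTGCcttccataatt
Tfrc, behind the coding sequence, chr16:32631599-32631626, plus strand: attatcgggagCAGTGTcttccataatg
Tfrc, behind the coding sequence, chr16:32631664-32631691, plus strand: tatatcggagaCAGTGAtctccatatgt
Tfrc, behind the coding sequence, chr16:32631711-32631738, plus strand: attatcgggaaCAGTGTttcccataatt
The hairpins of the ferritin chains shared 26 of 28 letters, while that of Slc40a1 shared 13 of 28 with each of them. No match in the other 6 genes says only that these letters were not in the transcript searched.

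The depth was 22927905 counts on genes for the CLP kidney, 16474248 for the CLP + MLT kidney, 16623050 for the CLP heart and 15883057 for the CLP + MLT heart. Mitochondrial genes took 14.8% and 24.2% of these counts in the kidney libraries and 31.6% and 36.0% in the heart libraries. Reads placed at more than 1 site, which were not counted, made up 23.6% to 38.6% of each library. Of the reads counted on a gene or listed as on no gene, 52.1% to 52.6% were on no gene in each library. The reason was not tested. The tissues matched their labels by markers: the cardiomyocyte list summed to 31282 and 20634 CPM in the heart libraries and to 11.9 and 17.3 CPM in the kidney libraries. Here CPM (the usual depth-scaled count) was computed with TMM scaling within each tissue. Proximal tubule markers summed to 6166 and 8342 CPM in the kidney and also reached 127 CPM in the CLP heart and 273 CPM in the CLP + MLT heart. The kidney sums hide a split: by value, 5 of 8 genes were higher in CLP + MLT and 3 were lower (Slc5a2, Slc5a12 and Slc22a6).

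In the kidney, the iron genes were lower in the CLP + MLT library as a group. Hamp had no count, and the other 9 genes passed the filter of a mean of at least 10 counts, each with at least 93 counts in every library of both tissues. All 9 had a log2 ratio (CLP + MLT over CLP) below 0, and 6 were at least 1.5-fold lower, the fold limit of the study's methods. Of all 16932 genes kept in the kidney, 12.0% were at least 1.5-fold lower and 10.6% were at least 1.5-fold higher. The median log2 ratio was −0.73 for the 9 iron genes and −0.01 for all genes. Scaled by library size alone, the median of all kidney genes was −0.19 and that of the iron genes −0.91, and 26.6% rather than 46.9% of the kidney calls were higher. The intervals of the 6 lower genes excluded 0, as did those of 9.41% of all kidney genes for lower calls and 8.71% for higher calls. At 2-fold, 2 iron genes were lower, Hfe and Trf, against 5.01% of all genes. In the heart the same 9 genes passed the filter and went both ways: 4 were below 0 and 5 above, and the median was 0.16. There 3 were at least 1.5-fold lower and 0 were at least 1.5-fold higher, against 12.7% and 10.7% of the 15871 genes kept. Their 3 intervals excluded 0, as did those of 10.5% of all heart genes for lower calls and 8.38% for higher calls, and at 2-fold 1 iron gene (Slc40a1) was lower, against 5.25%. Slc40a1, Hfe and Trf were at least 1.5-fold lower in both tissues. The share of all genes lower in both tissues is not given here, so this overlap has no background beside it.

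**Figure D1:**
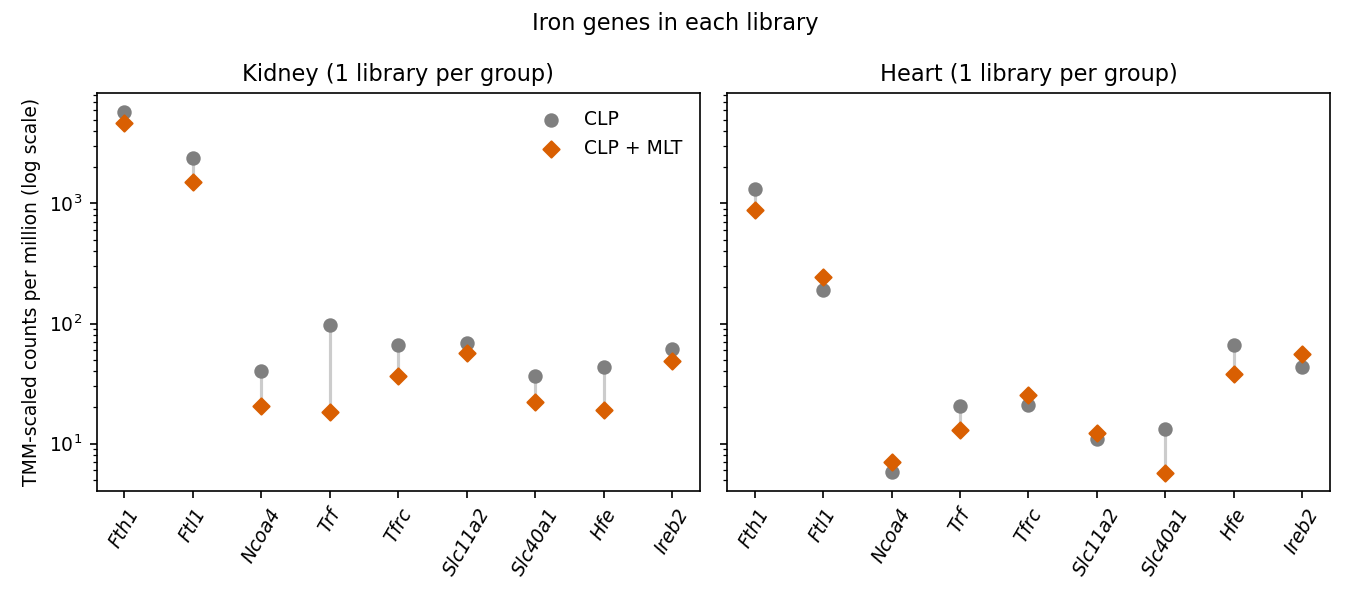
TMM-scaled CPM on a log axis for 9 iron genes, with 1 point per library, circles for CLP and diamonds for CLP + MLT. In the kidney all 9 diamonds sit below their circles, with the widest gap for Trf (97.3 and 18.4), and in the heart 5 of 9 sit above.

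Ferritin dominated the group. Fth1 (ENSMUSG00000024661.7, chromosome 19 from 9980598 to 9985098) encodes the heavy chain, which oxidizes iron as it is stored. The CLP kidney held 142419 counts of it and the CLP + MLT kidney 72749, or 5833 and 4702 CPM. This made it 0.621% and 0.442% of all counts on genes. The log2 ratio was −0.31, with a 95% counting interval of −0.32 to −0.30, lower in the CLP + MLT library but under the fold limit. In the heart Fth1 had 21308 and 14322 counts, or 1309 and 883 CPM, a log2 ratio of −0.57 (−0.60 to −0.54). At 1.48-fold lower in the CLP + MLT heart, it lay just inside the fold limit. Fth1 was therefore lower in both tissues. The gap between the tissues depended on the scaling: by library size alone the log2 ratio was −0.49 in the kidney and −0.51 in the heart.

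Ftl1 (ENSMUSG00000050708.16, chromosome 7 from 45457944 to 45459884) encodes the light chain, which helps iron to mineralize in the shell. The kidney libraries held 58632 and 23508 counts of it, or 2401 and 1520 CPM in CLP and CLP + MLT. Its log2 ratio in the kidney was −0.66 (−0.68 to −0.64), or 1.58-fold lower. In the heart it went the other way, with 3097 and 3983 counts, 190 and 246 CPM, and a log2 ratio of 0.37 (0.30 to 0.44). The light chain thus moved with the heavy chain in the kidney and against it in the heart.

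The counts of Ftl1 are uncertain. The pseudogene Ftl1-ps1 on chromosome 13 (74399694 to 74407346) was identical to Ftl1 at 906 of 910 aligned bases. Reads placed at both were not counted, so the counts of both may be too low, by an unknown amount. Ftl1-ps1 had 9634 and 3353 counts in the kidney (log2 ratio −0.86) and 377 and 483 in the heart (0.36). A predicted gene on the opposite strand, Gm10252, shared 355 exon bases with Ftl1 and was picked out after its values were seen. It had 31973 and 9646 counts in the kidney and 1452 and 2343 in the heart. The sources used here do not give the strand setting of the counting, and reads of Ftl1 and Gm10252 cannot be told apart. With the counts of all 3 genes added, the log2 ratio was −0.80 (−0.82 to −0.78) in the kidney and 0.47 (0.42 to 0.52) in the heart, the same directions as for Ftl1 alone. Adding them does not recover reads that were left uncounted.

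Per length, in TPM (counts divided by the length of the principal transcript and scaled to the same total in every library), Fth1 led every library. Its TPM was 10595 and 6807 in the CLP and CLP + MLT kidney and 2017 and 1541 in the CLP and CLP + MLT heart. Ftl1 came next in every library, at 4186 and 2111 TPM in the kidney and 281 and 411 TPM in the heart. TPM carries no TMM scaling, so its differences between libraries are not those of the log2 ratios. In the kidney, both chains differed between the groups by a larger fold in TPM than in TMM-scaled CPM. The ratio of Fth1 to Ftl1 in TPM, for counted reads only, was 2.53 in the CLP kidney, 3.22 in the CLP + MLT kidney, 7.17 in the CLP heart and 3.75 in the CLP + MLT heart. The order of the chains depended on the length used: with the union of all annotated exons, Fth1 over Ftl1 was 0.94 in the CLP kidney, so that Ftl1 led there. It was 1.20 in the CLP + MLT kidney, 2.66 in the CLP heart and 1.39 in the CLP + MLT heart.

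**Figure D2:**
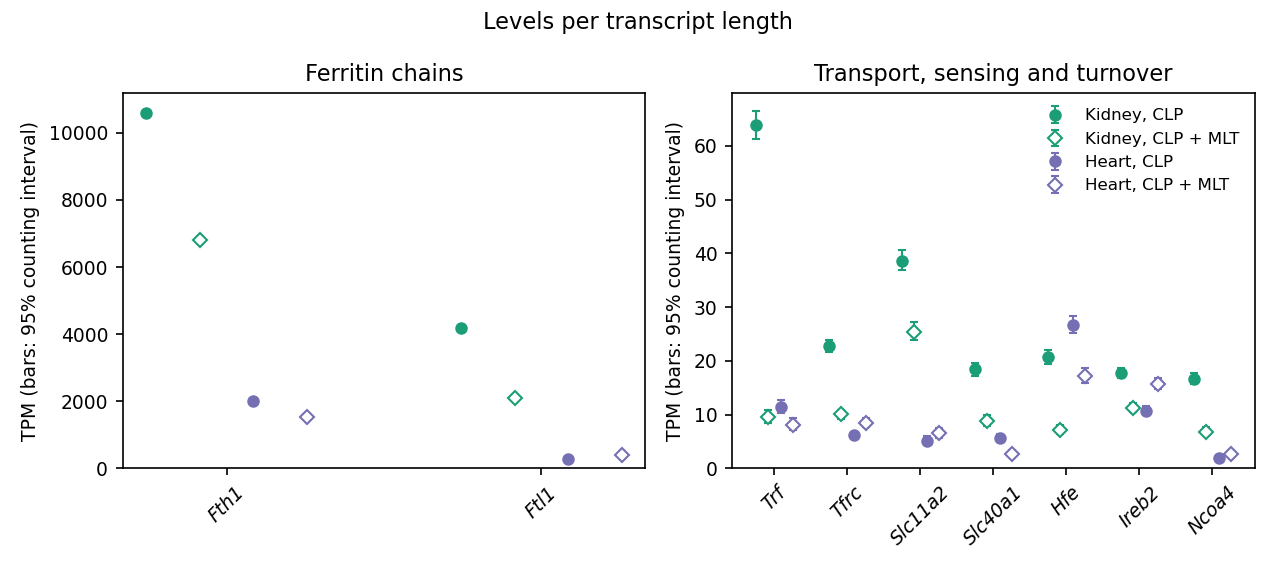
Levels per length in TPM for the ferritin chains (left) and 7 other iron genes (right), with circles for CLP, open diamonds for CLP + MLT and bars for the 95% Poisson interval, which covers counting error only. Each panel has its own linear axis from 0. Trf in the CLP kidney (63.9 TPM) stands above the other genes on the right.

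Ncoa4 (ENSMUSG00000056234.15, chromosome 14 from 32159865 to 32179855) encodes the receptor that delivers ferritin to lysosomes, where its iron is set free. It had 984 counts in the CLP kidney and 321 in the CLP + MLT kidney, or 40.3 and 20.7 CPM. Its log2 ratio was −0.96 (−1.14 to −0.77), a 1.94-fold lower level in the CLP + MLT library. In the heart it had few counts, 94 and 113, and its log2 ratio of 0.27 had an interval from −0.14 to 0.68. A difference in the heart was not detectable at this depth.

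Of the uptake genes, Trf showed the largest difference of the group. Trf (ENSMUSG00000032554.15, chromosome 9 from 103204001 to 103230444) encodes transferrin, the iron carrier of plasma, which is made mainly by the liver. In the kidney it had 2376 counts in CLP and 284 in CLP + MLT, or 97.3 and 18.4 CPM. It was 5.30-fold lower with melatonin, with a log2 ratio of −2.40 (−2.59 to −2.23), rank 104 from the lowest among the 16932 genes kept. In the heart it had 337 and 210 counts, or 20.7 and 12.9 CPM, a log2 ratio of −0.68 (−0.93 to −0.42). Trf was the third most abundant iron gene per length in the CLP kidney, at 63.9 TPM, and stood sixth in the CLP + MLT kidney, at 9.60 TPM. There its counting interval overlapped those of Tfrc above it and Slc40a1 below it.

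Trf is a gene of hepatocytes, so their markers are given beside it. In the kidney, 3 of 8 listed genes were higher and 4 lower by value, with Ahsg at 0 in both kidney libraries and Cps1 at 1 and 0 counts. Albumin, the defining one, had 114 and 71 counts there, a log2 ratio of −0.02. The list summed to 1239 CPM in the CLP kidney and 840 CPM in the CLP + MLT kidney, mostly from Cyp2e1, a drug-metabolizing enzyme that the kidney also makes (1045 and 552 CPM, log2 ratio −0.92). In the heart, Alb had 140 and 70 counts (−0.99), Ahsg 76 and 37 (−1.02), Apoh 48 and 18 (−1.39) and Ttr 29 and 24 (−0.26). Higher there were Cyp2e1 with 229 and 380 counts (0.73), Serpina1a with 22 and 72 (1.69), and F2 with 2 and 13, under the filter. The list summed to 33.5 and 37.8 CPM in the heart, with 3 genes higher, 4 lower and Cps1 at 0. The part of hepatocyte RNA in the values of Trf was not tested. Endothelial markers were lower in the CLP + MLT kidney by value in 5 of 5 genes, with sums of 202 and 152 CPM, and summed to 832 and 971 CPM in the heart with 4 of 5 higher. Erythroid markers, whose cells carry much Tfrc, summed to 69.5 and 82.3 CPM in the kidney and 257 and 224 CPM in the heart. Their part in the values of the iron genes was not tested.

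Tfrc (ENSMUSG00000022797.16, chromosome 16 from 32608920 to 32632794) encodes the transferrin receptor, and its mRNA carries the 4 hairpins printed above behind the coding sequence. It had 1609 and 566 counts in the CLP and CLP + MLT kidney, or 65.9 and 36.6 CPM, a log2 ratio of −0.85 (−0.99 to −0.71). In the heart it had 343 and 415 counts, or 21.1 and 25.6 CPM, a log2 ratio of 0.28 (0.07 to 0.49). The receptor was 1.80-fold lower in the CLP + MLT kidney, and the heart value was above 0 without reaching 1.5-fold. Per length, the CLP kidney had 3.69 times the TPM of the CLP heart, and the CLP + MLT kidney had 1.19 times that of the CLP + MLT heart. These TPM ratios carry no TMM scaling, and mitochondrial genes took an unlike share of the counts in each library.

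Slc11a2 (ENSMUSG00000023030.16, chromosome 15 from 100387898 to 100425072) encodes the divalent metal transporter that moves ferrous iron out of endosomes and into gut and tubule cells. It had 1692 and 886 counts in the kidney, or 69.3 and 57.3 CPM, and 177 and 197 counts in the heart, or 10.9 and 12.1 CPM. The log2 ratio was −0.28 (−0.39 to −0.16) in the kidney and 0.16 (−0.14 to 0.46) in the heart. Neither reached the fold limit, and in the heart no difference was detectable at this depth. A gene on the opposite strand that shares 94 exon bases with it, Gm5475, had at most 39 counts in any library.

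Slc40a1 (ENSMUSG00000025993.10, chromosome 1 from 45908068 to 45926523) encodes ferroportin, the exporter of iron from cells. The kidney libraries held 898 counts in CLP and 344 in CLP + MLT, or 36.8 and 22.2 CPM, a log2 ratio of −0.73 (−0.91 to −0.55). The heart libraries held 215 and 93 counts, or 13.2 and 5.73 CPM, a log2 ratio of −1.20 (−1.57 to −0.85). Ferroportin was thus 1.65-fold lower in the CLP + MLT kidney and 2.30-fold lower in the CLP + MLT heart. In the heart this was the largest difference of the group. The ratio of Tfrc to Slc40a1 in TPM was 1.10 in the CLP heart and 3.08 in the CLP + MLT heart, while it was 1.23 and 1.13 in the kidney. Between the heart libraries Slc40a1 (log2 ratio −1.20, down to 93 counts) differed more than Tfrc, which went the other way (0.28). With exon-union lengths, as used above for ferritin, the ratio of Tfrc to Slc40a1 was 2.32 and 6.49 in the heart and 2.61 and 2.39 in the kidney.

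Macrophages are rich in ferroportin, and their markers did not move alike in the tissues. In the kidney the macrophage list summed to 107 CPM in CLP and 168 CPM in CLP + MLT, with 6 of 10 genes higher and 3 lower by value, Vsig4 at 0 in both libraries and Timd4 at 1 and 0 counts. Most of that difference came from Csf1r (46.7 and 101 CPM, log2 ratio 1.12). Adgre1 had 0.68, C1qb 0.30, Mrc1 0.25, C1qa and C1qc each 0.08 and Cd68 −0.50, while Cd163 (6 and 2 counts) was under the filter. In the heart it summed to 229 and 189 CPM, with 4 higher, 6 lower and none at 0. There Cd163, Mrc1 and C1qa had log2 ratios of −0.89, −0.88 and −0.80, and C1qb, C1qc and Cd68 had −0.55, −0.21 and −0.03. On the other side, Adgre1 had 1.55 and Csf1r 0.15, while Vsig4 (2 and 6 counts) and Timd4 (4 and 6 counts) were under the filter. In bulk RNA, fewer cells of a type and less RNA per cell cannot be told apart. The part of macrophages in the heart value of Slc40a1 was not tested.

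Hfe and Ireb2 belong to iron sensing. Hfe (ENSMUSG00000006611.15, chromosome 13 from 23702034 to 23710854) encodes a membrane protein that binds the transferrin receptor and is mutated in hereditary hemochromatosis. It had 1068 and 293 counts in the kidney, or 43.7 and 18.9 CPM, a log2 ratio of −1.21 (−1.40 to −1.02). It had 1086 and 616 counts in the heart, or 66.7 and 38.0 CPM, a log2 ratio of −0.81 (−0.96 to −0.67). Hfe was lower in the CLP + MLT library of both tissues, 2.31-fold in the kidney and 1.76-fold in the heart. Of the 9 genes past the filter it alone had a higher TPM in the CLP heart (26.7) than in the CLP kidney (20.7).

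Ireb2 (ENSMUSG00000032293.8, chromosome 9 from 54863789 to 54912530) encodes an iron regulatory protein, which binds the hairpins printed above. It had 1486 and 748 counts in the kidney, or 60.9 and 48.3 CPM, and 703 and 909 counts in the heart, or 43.2 and 56.0 CPM. The log2 ratio was −0.33 (−0.46 to −0.20) in the kidney and 0.38 (0.23 to 0.52) in the heart. Both lay under the fold limit, on opposite sides of 0.

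Hamp (ENSMUSG00000050440.8, chromosome 7 from 30942368 to 30944032) encodes hepcidin, which the liver makes. It had 0 counts in both kidney libraries, 2 in the CLP heart and 0 in the CLP + MLT heart. A count of 0 allows up to 3 counts, or 0.131, 0.182 and 0.189 CPM before TMM scaling in the CLP kidney, the CLP + MLT kidney and the CLP + MLT heart. No fold is given, since every library was under that floor.

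**Figure D3:**
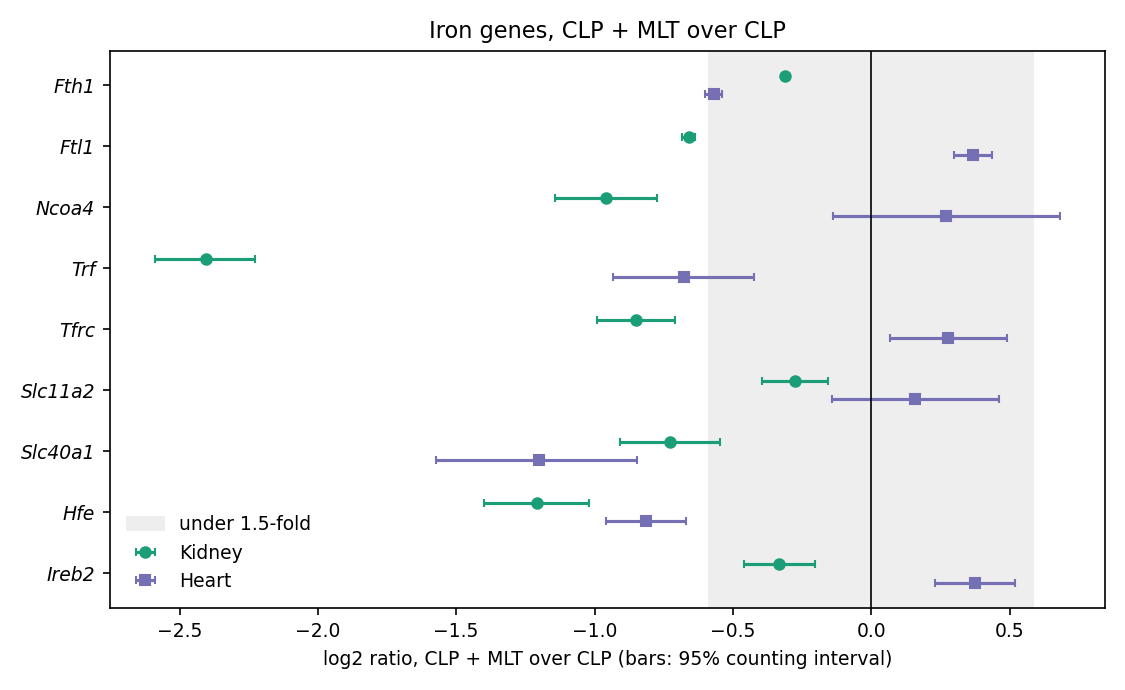
Log2 ratios (CLP + MLT over CLP) of 9 iron genes in the kidney (circles) and heart (squares), with bars for the 95% counting interval and grey for differences under 1.5-fold. The kidney values run from −2.40 for Trf to −0.28 for Slc11a2, and the heart values from −1.20 for Slc40a1 to 0.38 for Ireb2.

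The 4 genes in which the search found a hairpin did not share a direction in the heart. Hairpins outside the motif or in other transcripts would have been missed. Of the 3 with a hairpin before the coding sequence, Slc40a1 (−1.20) and Fth1 (−0.57) were below 0 and Ftl1 (0.37) was above 0. Tfrc, with hairpins behind the coding sequence, was above 0 (0.28). In the kidney all 4 were below 0, from −0.31 for Fth1 to −0.85 for Tfrc. These ratios measure mRNA only, and translation was not measured.

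Below the ferritin chains, the order of the levels per length differed between tissues. In the CLP kidney Trf (63.9 TPM) and Slc11a2 (38.7 TPM) stood apart, followed by Tfrc, Hfe, Slc40a1, Ireb2 and Ncoa4 between 22.7 and 16.7 TPM, where each counting interval overlapped that of the gene above. In the CLP + MLT kidney Slc11a2 (25.5 TPM) stood apart, and Ireb2, Tfrc, Trf, Slc40a1, Hfe and Ncoa4 followed between 11.3 and 6.86 TPM with intervals that overlapped in turn. In the CLP heart the order was Hfe (26.7 TPM), then Trf and Ireb2 with overlapping intervals (11.5 and 10.7 TPM), then Tfrc, Slc40a1 and Slc11a2 with overlapping intervals (6.17 to 5.14 TPM), then Ncoa4 (2.03 TPM). In the CLP + MLT heart Hfe and Ireb2 (17.2 and 15.7 TPM) overlapped, as did Tfrc, Trf and Slc11a2 (8.48 to 6.51 TPM), and Ncoa4 and Slc40a1 (2.78 and 2.76 TPM). These orders too depended on the length used. With exon-union lengths Hfe (26.8 TPM) stood above Slc11a2 (23.9 TPM) in the CLP kidney, Slc11a2 overlapped Tfrc (23.3 TPM), and Slc40a1 came below Ncoa4 (8.95 and 9.43 TPM). In the CLP + MLT kidney Ireb2 then stood below Tfrc, Trf and Hfe with overlapping intervals, and in the CLP heart Slc40a1 stood below Slc11a2 and Tfrc stood apart from both.

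Patterns over the 4 libraries were compared by the Euclidean distance between centred log2 CPM profiles, among the 8841 genes with at least 100 counts in every library. Nearest to Fth1 were Scd1, Hook1 and Mpp6, at distances of 0.034, 0.085 and 0.085. Nearest to Tfrc were Slc16a10 and Atxn1l, at 0.105 and 0.122. With 4 points, mostly set by tissue, this is a description only. Slc40a1 had 93 counts in the CLP + MLT heart and was not eligible.

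Among 20 other iron carriers, reductases and oxidases, 18 passed the filter in the kidney, with 3 at least 1.5-fold higher and 6 lower, against 22.7% of all kidney genes in either direction. The median log2 ratio was −0.09. Lcn2, which binds bacterial iron carriers and marks tubular injury, had 11346 and 1600 counts and a log2 ratio of −2.17. Cp, which encodes ceruloplasmin, an oxidase that helps to load iron onto transferrin, had 4137 and 1623 counts and −0.69. Also lower in the kidney were Steap1 (97 and 19 counts), Steap2 (1383 and 550), Steap4 (130 and 41) and Ltf (25 and 1). They were named after their values were seen. On the other side, Slc39a8, which encodes a zinc and iron importer, had 1032 and 1423 counts and 1.12, and Steap3, an endosomal iron reductase, had 191 and 203 counts and 0.74. In the heart 15 passed the filter, 3 were higher and 4 lower, against 23.5% of all heart genes in either direction, and the median was −0.26. Lcn2 had 3224 and 372 counts and a log2 ratio of −3.11, and Scara5, a ferritin receptor, had 308 and 152 counts and −1.01. The other lower ones were Slc39a14 (−0.98), an importer of iron not bound to transferrin, and Steap3 (−0.66), and the third higher one was Slc39a8 (0.82, with 14 and 25 counts), all named after their values were seen. In the kidney the third higher one, named likewise, was Scara5 (1.07, with 17 and 23 counts). The endocytic receptors Lrp2 (1.49) and Cubn (1.00), which are also proximal tubule markers, were higher in the CLP + MLT heart, beside the proximal tubule list, of which 6 of 8 genes were higher there by value. The part of kidney RNA in the heart values was not tested. Neutrophil markers, whose cells also carry Lcn2, summed to 23.0 and 16.4 CPM in the kidney and 54.7 and 39.1 CPM in the heart, with 4 and 6 of 7 genes lower by value and none at 0. Their part in the values of Lcn2 was not tested.

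Of 19 genes that control hepcidin, 15 passed the filter in the kidney, with 3 lower and 0 higher (all kidney genes: 12.0% and 10.6%) and a median log2 ratio of −0.25. Bmp6, the signal by which iron stores raise hepcidin in the liver, had 1132 and 302 counts and −1.25. Stat3, which carries the signal of interleukin 6, had 2906 and 849 counts and −1.12, and the third was the receptor gene Il6ra (−0.75), named after its value was seen. In the heart 17 passed, with 1 lower and 0 higher (all heart genes: 12.7% and 10.7%) and a median of 0.12. The lower one was Hjv, a coreceptor for bone morphogenetic proteins made in muscle and liver, with 3157 and 1943 counts and −0.70. Hjv had 0 counts in both kidney libraries. Of 9 genes of iron sensing, Ireb2 among them, all 9 passed the filter in each tissue and 0 reached the fold limit in either.

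Of 9 heme synthesis genes, 3 were lower and 0 higher in the kidney, with a median of −0.40. The shares of all genes to set beside the counts of this and the next lists are again 12.0% lower and 10.6% higher in the kidney and 12.7% and 10.7% in the heart. Alas1, which encodes the rate-limiting enzyme of the pathway, had 9638 and 3634 counts and a log2 ratio of −0.75, and Cpox had −0.66. The third was Alas2 (−0.84), the erythroid form, with 71 and 25 counts, named after its value was seen. In the heart Urod (−0.82) and Alad (−0.74) were lower, Cpox was higher (1.30), and the median was −0.27. Among 14 genes of heme breakdown, binding and transport, 13 passed in the kidney with 1 higher and 2 lower. They were Flvcr2 (1.13), a member of the heme exporter family, Hmox1 (−2.67), the inducible heme oxygenase that frees iron from heme, and Hp (−1.09), the haemoglobin binder haptoglobin, named after its value was seen. In the heart 14 passed with 1 higher and 3 lower, among them Cd163 (−0.89), Hpx (−0.86) and Hmox2 (−0.70), and the higher one was Flvcr2 (0.64), with 14 and 22 counts, named after its value was seen. The medians of this list were −0.10 in the kidney and −0.17 in the heart.

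Of 21 genes of mitochondrial iron and iron-sulfur clusters, 20 passed in each tissue. In the kidney 1 was higher, Fdxr (0.90), a reductase of cluster assembly, 0 were lower, and the median was 0.01. In the heart 4 were lower and 0 higher, with a median of −0.21. Among them were Bola3 (−0.71), Glrx5 (−0.70) and Nfu1 (−0.60), all of cluster assembly. Cardiomyocyte markers, from cells rich in mitochondria, summed to 31282 and 20634 CPM in the heart with 6 of 8 lower by value and Myl7 at 1 and 0 counts, and their part in these values was not tested. Outside the iron genes, 7 mRNAs listed from general knowledge as bearing IRE or IRE-like hairpins included 1 higher (Cdc14a, 0.60) and 1 lower (Alas2) in the kidney and none past the limit in the heart.

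**Figure D4:**
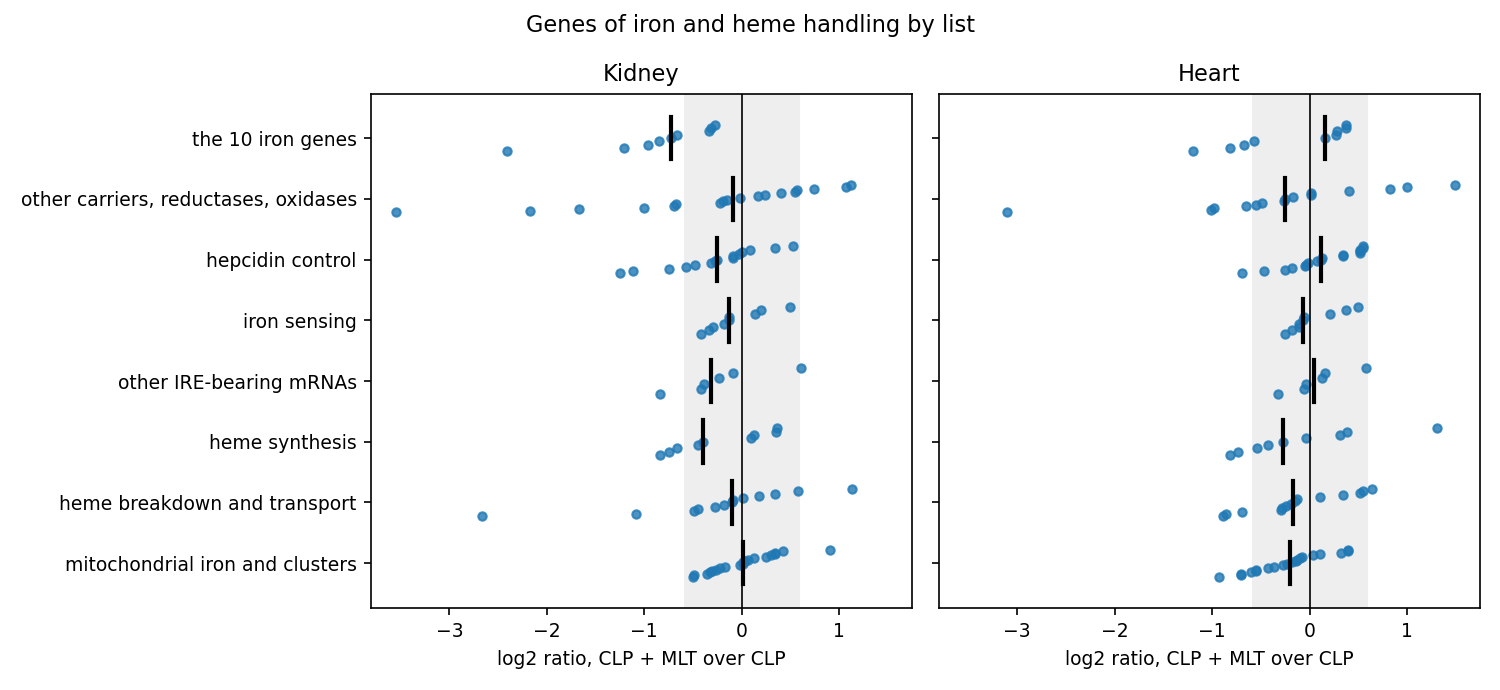
Log2 ratios (CLP + MLT over CLP) of each gene past the filter in 8 lists of iron and heme handling, in the kidney (left) and heart (right), with black bars for list medians and grey for differences under 1.5-fold. The 10 iron genes have the lowest median of the kidney lists (−0.73), and their median in the heart is 0.16.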

How the data were processed

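Poly-A RNA was sequenced from 4 libraries. Per the labels and the methods, the authors trimmed reads with trim-galore and aligned them to mm10 with HISAT2 2.1.0. They deposited raw counts of reads per gene, and HTSeq is listed in the submitters' processing notes. The sources used here give neither its version nor its strand setting nor the annotation. Each deposited count table ends with 5 totals that name no gene, which were left out. Symbols matched 55141 of 55401 identifiers. The kit does not mark strand.

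Libraries of 1 tissue were scaled together by TMM (edgeR 4.0.16, R 4.3.3), and by DESeq2 1.42.0 size factors as an alternative. Log2 ratios used a prior count of 0.5, for genes whose mean count was 10 or more. A single library per group gives no estimate of dispersion, and no p-value is given. Intervals are 95% exact Clopper-Pearson or exact Poisson intervals. Like the floor of 3 counts, they cover counting error only, since PCR copies are not independent molecules. A gene was called at 1.5-fold or more. TPM used the length of the principal transcript and no TMM scaling. Intervals, TPM and distances came from Python 3.11.15 and scipy 1.17.1. Counts were also simulated with counting error only, and the changed genes had at least 50 expected counts and a true change of at least 2-fold. Of these, 200 of 200 passed the 1.5-fold limit in the kidney comparison (16912 genes) and 199 of 200 in the heart comparison (15894 genes). Among unchanged genes, 727 and 733 passed it. With changes that large the outcome was nearly fixed, and the simulation held no differences between mice, so it checks the computation only.

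The members, the gene lists and the tests were chosen with earlier results of these data known. Lists were written from general knowledge. Besides the 10 members, the text names up to 4 called genes per list and tissue with the largest ratios among those averaging 100 counts or more, and the 3 genes nearest in pattern to Fth1, Tfrc and Slc40a1. Some genes that this rule names are not reported here. Alternatives were scaling by library size, DESeq2 size factors or upper quartile, no filter or a minimum mean of 50, a prior count of 5, removal of mitochondrial and haemoglobin genes, a limit of 2-fold, an interval that excludes 0, and the exact test of edgeR with the coefficient of variation set to 0.2 or 0.4. Exon-union lengths were added after seeing the data.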

Additional observations from a re-analysis of the deposited data

Results flagged for a closer look

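In 3 genes the counting intervals of the kidney and heart log2 ratios lay wholly on opposite sides of 0, below in the kidney and above in the heart. The share of all genes with such opposite intervals is not given here, so 3 genes cannot be called many or few. The heart ratio minus the kidney ratio was 1.03 for Ftl1, 1.13 for Tfrc and 0.71 for Ireb2. With 1 library per group, each difference between the tissues was not tested. Of the 6 tissue values behind them, only those of Ftl1 and Tfrc in the kidney were past the fold limit.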

How the results depend on the processing

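Leaving out a replicate was not possible, and no paired analysis was possible because each group has 1 library and the labels give no replicate numbers. Scaling by library size, DESeq2 size factors or upper quartile, a minimum mean of 50, a prior count of 5, removal of mitochondrial and haemoglobin genes and an interval that excludes 0 each gave 6 lower iron genes in the kidney and 3 in the heart, the same genes as in the report. With no filter the heart had 4, the added one being Hamp with 2 and 0 counts, and the median of the iron genes there was −0.20. At 2-fold, 2 were lower in the kidney (Hfe and Trf) and 1 in the heart (Slc40a1), and an assumed coefficient of variation of 0.2 gave the same genes. At 0.4, only Trf in the kidney passed, and 0 in the heart. Another scaling shifts every gene of a tissue alike, and a filter leaves each ratio as it was, so neither bears on how far a single ratio is stable. Scaled by library size, the median of all kidney genes shifted to −0.19, and the ratios of Trf, Fth1 and Ireb2 there were −2.59, −0.49 and −0.51.

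Of all genes, 2038 were lower and 1801 higher in the kidney, or 46.9% higher among the calls, and 2019 lower and 1706 higher in the heart. In the kidney, lower and higher calls numbered 3172 and 1149 with library size (26.6% higher), 6051 and 4649 with no filter, 1055 and 954 at a minimum mean of 50, 849 and 680 at 2-fold, and 337 and 276 or 69 and 23 at assumed variations of 0.2 or 0.4. In the heart they numbered 1750 and 1965 with library size (52.9% higher, against 45.8%), 1801 and 1928 with upper quartile (51.7% higher), 5400 and 5063 with no filter, 1160 and 711 at a minimum mean of 50, 833 and 727 at 2-fold, and 373 and 292 or 21 and 42 at 0.2 or 0.4. Depth limits Ncoa4, Slc40a1 and Slc11a2 in the heart and Hamp everywhere.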
